A study of Mus musculus with 12 samples.

Results

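Colonic adenomas that carry the N151A mutation on 1 allele of Tdg were compared with and without the loss of 1 allele of Tet1. The 3 double heterozygous adenomas had the genotype Tet1+/- TdgN151A/+ ApcMin/+, and the 3 Tdg heterozygous adenomas had the genotype Tet1+/+ TdgN151A/+ ApcMin/+. Both groups thus share the Min allele of Apc and the mutated Tdg allele, and the labels separate them by Tet1 alone. The mice were of the C57BL/6J strain and were killed at 150 to 160 days. The members were all autosomal CCCGGG sites with at least 50 reads in each of the 6 adenomas, 14610 of 164896 autosomal sites. The series holds 12 adenomas in all, and the other 6 were Tet1 null (Tet1-/- Tdg+/+ ApcMin/+, 3 adenomas) and control (Tet1+/+ Tdg+/+ ApcMin/+, 3 adenomas). Whether each adenoma is from its own mouse is not stated in the labels. The p-values therefore cover the variation among these samples only, which may be technical in part. How the Tet1 allele was disrupted is not given either, and Tet1 dosage was taken from the labels.

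Tet1 is a dioxygenase that oxidises 5-methylcytosine in steps, and Tdg is a glycosylase that cuts out the more oxidised forms so that base excision repair can restore an unmethylated cytosine. The N151A change removes the catalytic activity of Tdg in biochemical work. Loss of Apc starts adenomas in the mouse intestine, and gain of methylation at CpG islands is a common feature of colorectal tumours. In mammalian genomes most CpG sites are highly methylated, while those in CpG islands are mostly unmethylated.

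Methylation was read by digital restriction enzyme analysis. SmaI first cuts CCCGGG sites that are unmethylated, XmaI then cuts the methylated ones left over, and the 2 kinds of fragment end are counted by sequencing. A level is the percentage of reads at a site with the methylated end, as adjusted by the authors with spiked standards. The DNA came from whole dissected adenomas, so a changed share of cells of a type and a changed level per cell cannot be told apart in any value below. Total reads were 17146721, 17729712 and 2349576 in the double heterozygous adenomas, against 15404336 to 18865833 in the Tdg heterozygous adenomas. At the 14610 sites the median depth was 872, 914 and 109 reads in the double heterozygous and 946, 949 and 794 reads in the Tdg heterozygous adenomas. Double heterozygous adenoma 3 was therefore the shallow library, and it set which sites qualified. The other 5 adenomas alone had 50 reads at 23187 autosomal sites. Just inside the depth limit, 684 sites had their lowest depth at 50 to 54 reads, and 723 sites just outside it had their lowest depth at 45 to 49 reads.

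Further properties moved with the genotypes. All 3 double heterozygous adenomas were male by their reads on the Y chromosome (3281, 2402 and 485), while Tdg heterozygous adenoma 2 was male (3180 reads) and adenomas 1 and 3 were female (2 and 3 reads). The pair of readouts of the unmethylated standard La168 gave 1.18, 0.73 and 0.61% and 1.84, 0.97 and 0.77% in the double heterozygous libraries, against 0.49, 0.16 and 0.12% and 0.65, 0.08 and 0.13% in the Tdg heterozygous libraries. The standard thus read higher in every double heterozygous library, by 0.583 and 0.907 percentage points on average. The fully methylated standard T324 lay between 98.83 and 99.1% in all 6 libraries, and the groups overlapped at this and all remaining standards. At some intermediate standards double heterozygous adenoma 3 lay outside the range of the other compared libraries. It was above them at Sla341_3 (62.9% against 48.99 to 53.19%). It was below them at T353_1 (40.09% against 42.97 to 44.24%) and Gfp_1 (32.62% against 34.66 to 36.14%). At Luc_1 it lay among them (23.5%). Replicates were not copies of each other. Between adenomas of the same genotype, 25.5 to 45.5% of the sites differed at an unadjusted p under 0.05 by a chi-square test of their reads. These shares are over the 9582 to 10695 tested sites with reads of both states in the pair. The lowest shares, 25.5 and 32.2%, were those of pairs with the shallow double heterozygous adenoma 3.

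Most of the sites were unmethylated in both genotypes. Levels below 5% were found at 59.6 to 60.7% of the 14610 sites in the double heterozygous adenomas and at 60.3 to 61.2% in the Tdg heterozygous adenomas. Levels above 80% were found at 15.1, 13.3 and 13.0% of the sites in the double heterozygous and at 13.1, 14.1 and 13.5% in the Tdg heterozygous adenomas. The genotypes therefore overlapped at both ends of the scale, and adenoma 1 of the double heterozygous group held the largest share of highly methylated sites of the 6. At 2618 sites no methylated read was seen in any of the 6 adenomas, and at 1 site no unmethylated read. The remaining 11991 sites could be tested.

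The adenomas differed among themselves as much within a genotype as between genotypes. Over the 11991 tested sites, the mean absolute difference in level was 2.94 to 5.57 percentage points for the 9 pairs of adenomas of different genotype. It was 3.78 to 5.31 points for the 3 pairs of double heterozygous adenomas and 3.61 to 4.54 points for the 3 pairs of Tdg heterozygous adenomas. Counting error alone would give 0.892 to 1.86 points, the upper end for pairs that hold the shallow adenoma. The most alike of the 15 pairs crossed the genotypes: double heterozygous adenoma 1 and Tdg heterozygous adenoma 3 differed by 2.94 points (Pearson r = 0.99 across sites, which share libraries and are not independent). The least alike pair also held double heterozygous adenoma 1, which differed from Tdg heterozygous adenoma 2 by 5.57 points. At the 2927 tested sites that had 20 to 80% methylation in control adenomas, the pair of double heterozygous 1 and Tdg heterozygous 3 differed by 7.13 points and the 3 double heterozygous pairs by 9.2 to 13.0 points. At these sites the median SD between replicates was 7.81 points in the double heterozygous and 7.12 points in the Tdg heterozygous adenomas. The grid of pairs by mean absolute difference shows no block for either genotype.

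**Figure D1:**
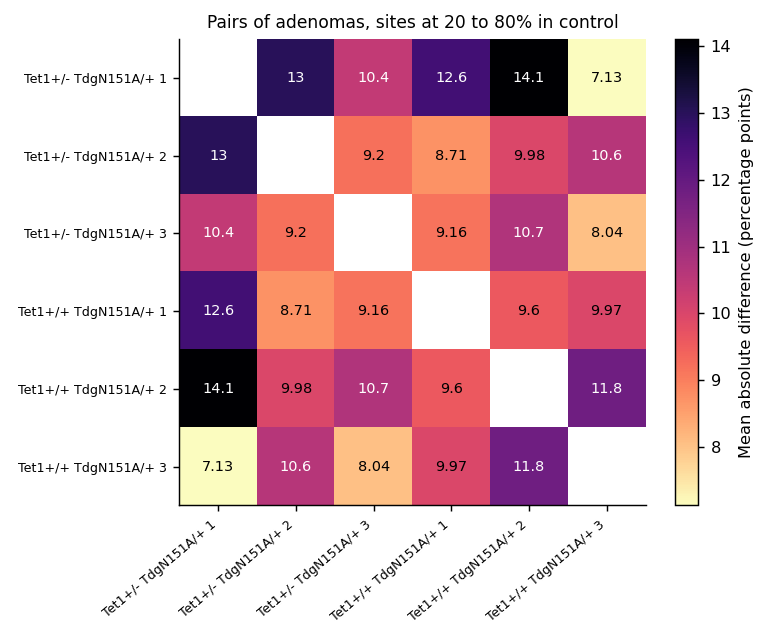
Mean absolute difference in adjusted level (percentage points, colour and printed value) for each pair of the 6 adenomas at the 2927 tested sites at 20 to 80% in control adenomas; the double heterozygous adenomas are the upper 3 rows and left 3 columns, the Tdg heterozygous adenomas the others. The palest cells join double heterozygous 1 with Tdg heterozygous 3 (7.13 points), and the darkest joins it with Tdg heterozygous 2 (14.1 points).

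The comparison asks which sites change when 1 Tet1 allele is lost on a Tdg N151A background. No site passed the test: 0 of 11991 tested sites (0.0%) differed between double heterozygous and Tdg heterozygous adenomas at an adjusted p under 0.05 (edgeR quasi-likelihood test, Benjamini-Hochberg adjustment), and the smallest adjusted p was 0.901. The unadjusted p was under 0.05 at 403 sites (3.36%), of which 266 were higher (2.22%) and 137 lower (1.14%) in double heterozygous adenomas. Limma on log2 ratios called 0 sites with 547 at an unadjusted p under 0.05 (4.56%), and a quasi-binomial model called 0 with 544 (4.54%). Without the shallow adenoma the count stayed at 0 with 374 sites at an unadjusted p under 0.05 (3.12%). It was also 0 of 18001 sites when that adenoma was left out and the sites were chosen anew on the other 5.

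The depth and the spread limit what this comparison can show. The 95% interval of the difference reached a median of 1.34 to each side on the log2 scale of the odds of methylated reads, a factor of 2.53. It was wider, 2.64, at sites below 5% in control adenomas and 1.14 to 1.21 in the higher classes. These are unadjusted intervals at the median site, and the adjusted test asked for more: differences of -2.51 at position 104859650 on chromosome 1 and -5.42 at position 5381647 on chromosome 12 were not called. The missing calls do not show that the genotypes are alike.

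**Figure D2:**
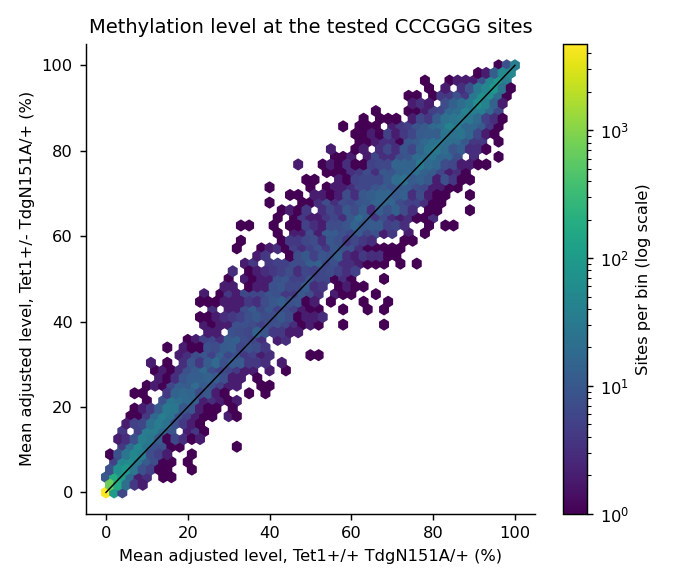
Mean adjusted level of the 3 double heterozygous adenomas (vertical axis, %) against that of the 3 Tdg heterozygous adenomas (horizontal axis, %) at the 11991 tested sites; colour gives the number of sites per bin on a log scale, and the line marks equal levels. Most sites lie near 0 or close to the line, and more sites lie at least 10 points above the line (437) than below it (121).

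Differences per site were small and leaned upward at intermediate levels. The median difference was 0.03 percentage points, with 90% of the sites between -4.24 and 8.39 points. A difference of at least 10 points in the group means was seen at 558 sites (4.65%), 437 of them higher and 121 lower in double heterozygous adenomas. Without the shallow adenoma these were 552 and 154 sites, and without double heterozygous adenoma 1 they were 389 and 272. At 383 sites (3.19%) all 3 double heterozygous levels lay above all 3 Tdg heterozygous levels, and at 316 sites (2.64%) all 3 lay below, together 5.83% of the tested sites. The counts of this separation were also taken by the level of the sites in control adenomas, which are not part of the comparison. Among sites below 5% in control, 103 of 6156 lay above (1.67%) and 196 below (3.18%). The unadjusted p was under 0.05 at 148 higher and 85 lower sites of this class (edgeR). The mean level of the class was also higher in double heterozygous adenomas, 0.704 against 0.627%. The shallow adenoma had a median of 109 reads over the member sites, and at that depth a low level can read as 0. Its part in the counts near 0 was not tested, so they give no direction for this class. Among sites at 20 to 80% in control, 160 of 2927 lay above (5.47%) and 46 below (1.57%).

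The 10 sites with the smallest p among those higher in double heterozygous adenomas fell into a group at high or intermediate levels and a group near 0. None passed the test, with an edgeR adjusted p of 0.901 or 0.91 at each. At position 45960997 on chromosome 11 (mm9, site 104842 of the authors' list), the level was 93.25, 94.06 and 77.38% in the double heterozygous adenomas, against 60.93, 52.8 and 76.19% in the Tdg heterozygous adenomas. The groups did not overlap, but the lowest double heterozygous value rested on 58 reads of the shallow library and lay next to the highest Tdg heterozygous value. The log2 odds difference was 2.47 ± 0.62 (SE; edgeR unadjusted p = 0.00015, or 2.67e-05 without the shallow adenoma, adjusted p = 0.197). The tested neighbour 222 bp away did not share the difference, with 91.25, 93.77 and 82.4% against 93.23, 95.37 and 93.44%.

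At position 69856511 on chromosome 11 (site 106948) the level was 81.48, 65.69 and 81.7% in the double heterozygous and 37.88, 47.7 and 54.17% in the Tdg heterozygous adenomas. All 3 double heterozygous adenomas were clearly above the others here, a difference of 29.7 points. Their mean was 76.3% with the shallow adenoma and 73.6% without it. Tet1 null adenomas were at 81.9% ± 2.87 and control adenomas at 59.5% ± 18.7 at this site (SD, n = 3 each). These 2 groups did not differ past the threshold (edgeR adjusted p = 0.118). The largest difference among sites whose groups did not overlap was at position 59507578 on chromosome 19 (site 164776), at 83.84, 84.54 and 63.0% against 60.43, 17.58 and 62.47%. Control adenomas were at 75.5% ± 5.63 and Tet1 null adenomas at 79.2% ± 11.5 at this site (SD, n = 3 each). Both were near the double heterozygous mean of 77.1%, while the Tdg heterozygous mean was 46.8%. Tdg heterozygous adenoma 2 was far below the other two of its genotype here, and the neighbour 468 bp away was also apart, at 37.55, 35.62 and 44.95% against 27.43, 29.49 and 33.15% (edgeR unadjusted p = 0.326). The second site by this measure was position 119270157 on chromosome 6 (site 63224), at 62.91, 69.95 and 54.41% against 19.39, 32.28 and 45.8%. At position 124792941 on chromosome 8 (site 84572) the level was 91.17, 93.82 and 94.57% against 68.56, 72.13 and 79.46%, a close grouping in both genotypes, with 51 reads in the shallow adenoma. Position 170822710 on chromosome 2 (site 22699) overlapped between the groups, at 99.3, 99.24 and 92.04% against 89.21, 87.44 and 97.08%.

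Among the sites at lower levels, position 31678498 on chromosome 2 (site 13509) was at 5.92, 2.93 and 4.34% in the double heterozygous adenomas, against 0.47, 0.52 and 1.15% in the Tdg heterozygous adenomas. The neighbouring tested site 446 bp away was separated in the same direction, at 20.58, 22.54 and 17.71% against 6.83, 10.9 and 10.07% (edgeR unadjusted p = 0.0194). This was the only named site of the 10 whose tested neighbours included one with both groups apart in the same direction and an unadjusted p under 0.05. At position 138630147 on chromosome 4 (site 42509) the levels were 16.89, 39.57 and 12.93% against 5.93, 3.95 and 10.54%, with adenoma 2 the highest. The log2 odds difference was 2.02, and 1.37 without that adenoma. Double heterozygous adenoma 2 alone stood apart at position 20673421 on chromosome 9 (site 86192), with 0.31, 10.03 and 1.21% against 0.07, 0.07 and 0.66%. The same adenoma stood apart at position 127308217 on chromosome 2 (site 18983), with 1.07, 11.89 and 1.65% against 0.31, 0.94 and 0.38%. At position 34256686 on chromosome 17 (site 150574) the levels were 1.38, 0.0 and 0.0%, and 0 of 3166 reads were methylated in the Tdg heterozygous adenomas, which allows a level of up to 0.0948%. Double heterozygous adenoma 1 alone had methylated reads here, as it did at the neighbour 401 bp away (0.96, 0.0 and 0.0%).

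The 10 sites with the smallest p among those lower in double heterozygous adenomas did not pass either (edgeR adjusted p of 0.901 or 0.91). The smallest p of all belonged to position 104859650 on chromosome 1 (site 5878), at 91.85, 76.86 and 75.47% in the double heterozygous and 95.16, 96.85 and 97.17% in the Tdg heterozygous adenomas. The double heterozygous values lay below the others in all 3 adenomas, 2 of them by a wide margin (log2 odds difference -2.51 ± 0.61, edgeR unadjusted p = 9.03e-05). The value of 75.47% was that of the shallow adenoma, on 88 reads. Without that adenoma the edgeR unadjusted p was 0.00271 and no longer the smallest. Position 45960997 on chromosome 11, for instance, was then at 2.67e-05 (edgeR unadjusted p). Position 63421095 on chromosome 15 (site 137967) was at 71.26, 48.94 and 79.21% against 83.19, 89.73 and 91.54%, again without overlap. Position 153637169 on chromosome 3 (site 32519) was at 2.57, 4.62 and 1.12% against 23.98, 10.76 and 7.39%. Levels at position 6021498 on chromosome 2 (site 11590) were 3.38, 2.24 and 2.69% in double heterozygous and 29.9, 14.66 and 3.14% in Tdg heterozygous adenomas. The groups overlapped, the Tdg heterozygous values were spread widely, and those at the neighbour 228 bp away had the same order, at 9.96, 9.25 and 11.19% against 55.33, 33.88 and 9.06%.

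Several of the lower sites were near 0 in every adenoma. At position 5381647 on chromosome 12 (site 113045) no methylated read was found among 780 reads of the double heterozygous adenomas, which allows a level of up to 0.385%. The Tdg heterozygous adenomas were at 0.54, 2.68 and 1.79%. Positions 38212408 on chromosome 2 (site 14180) and 74602409 on chromosome 18 (site 159234) were likewise at 0 in all double heterozygous adenomas, with 0.537% ± 0.232 and 0.767% ± 0.165 in the Tdg heterozygous adenomas (SD, n = 3). The shallow adenoma had 75, 124 and 67 reads at the sites on chromosomes 12, 2 and 18. These are too few to place its own level below those of the Tdg heterozygous adenomas. The 3 remaining sites were position 120352104 on chromosome 7 at 1.06% ± 0.295 against 5.19% ± 2.21, position 124337225 on chromosome 4 at 0.823% ± 0.456 against 3.98% ± 1.22, and position 40493950 on chromosome 9 at 0.0567% ± 0.0493 against 0.773% ± 0.261. Methylated reads numbered 0 in double heterozygous and 12 to 19 in Tdg heterozygous adenomas at the 3 sites on chromosomes 12, 2 and 18. They numbered 2 and 26 at the chromosome 9 site, 8 and 60 at the chromosome 4 site, and 32 and 202 at the chromosome 7 site. The largest falls among sites without overlap were at positions 120241551 on chromosome 5 (38.9% ± 23.2 against 68.1% ± 0.687), 117083441 on chromosome 8 (61.9% ± 25.6 against 85.1% ± 5.63) and 41272551 on chromosome 19 (53.9% ± 7.74 against 76.8% ± 3.76). On chromosomes 5 and 8 the spread among double heterozygous adenomas was about as large as the difference.

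**Figure D3:**
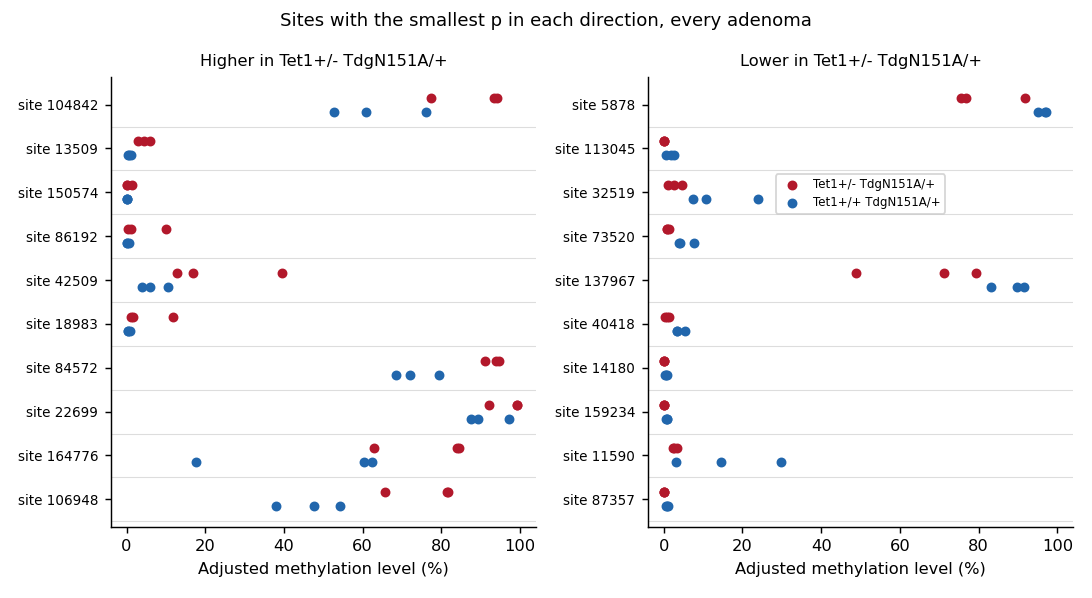
Adjusted level (%, horizontal axis) in each of the 3 double heterozygous (red, upper row of a site) and 3 Tdg heterozygous adenomas (blue, lower row) at the 10 sites with the smallest p that were higher (left) and the 10 that were lower (right) in double heterozygous adenomas, named by their number in the authors' list. The groups are apart at 7 sites on the left and 9 on the right, with no site past the adjusted threshold. At sites 113045, 14180 and 159234 the level of 0 in the shallow adenoma rests on 67 to 124 reads.

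Calls appeared when double heterozygous adenoma 1 was left out, a setting in which the shallow adenoma and adenoma 2 form the group. In that fit 5 sites were called (0.0417%; 490, or 4.09%, at an unadjusted p under 0.05), 2 higher and 3 lower in double heterozygous adenomas. The higher sites were positions 20673421 on chromosome 9 (edgeR adjusted p = 0.00238) and 127308217 on chromosome 2 (0.0165), both led by adenoma 2 as described above. The lower sites were positions 104859650 on chromosome 1 (edgeR adjusted p = 0.0066) and 120241551 on chromosome 5 (0.047), and position 135186469 on chromosome 6 (0.0203). At the last of these, adenoma 1 was at 98.04%, adenomas 2 and 3 at 76.1 and 89.22%, and the Tdg heterozygous adenomas at 97.6, 97.03 and 97.83%. At all 5 sites adenoma 1 had the double heterozygous level nearest to the Tdg heterozygous mean. Without the shallow adenoma none of the 5 was called, with an edgeR adjusted p of 0.935 at each.

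Neighbouring sites shared differences weakly. Across 5195 pairs of adjacent tested sites no more than 500 bp apart, the difference between double heterozygous and Tdg heterozygous adenomas correlated with Pearson r = 0.196. The difference between Tet1 null and control adenomas correlated with r = 0.419 across 5178 such pairs; both are descriptions over sites of the same libraries. Reads were also summed over the 586 runs of at least 3 tested sites, which held 2007 sites. No run passed (0.0%; 12 runs, 2.05%, at an unadjusted p under 0.05, edgeR), with or without the shallow adenoma. The smallest p belonged to a run of 4 sites on chromosome 7 between positions 120351225 and 120352104, at a mean level of 0.404% ± 0.144 in double heterozygous and 1.34% ± 0.53 in Tdg heterozygous adenomas (edgeR adjusted p = 0.657). At its last site the groups were apart, and at the other 3 they overlapped. The other lower runs lay on chromosome 2 from 38211654 to 38212408 (0.423% ± 0.32 against 1.39% ± 1.29) and on chromosome 4 from 34010711 to 34011437 (0.846% ± 0.143 against 1.78% ± 0.808). Of the higher runs, that on chromosome 9 from 107134250 to 107134591 was at 2.94, 4.17 and 7.21% in double heterozygous and 1.36, 1.93 and 1.7% in Tdg heterozygous adenomas (edgeR adjusted p = 0.759). All 3 double heterozygous values were above the others, and the shallow adenoma, with 290 reads over the run, was the highest. The higher runs on chromosome 2 from 127307472 to 127308217 (2.67% ± 1.78 against 0.989% ± 0.808) and on chromosome 13 from 102537697 to 102538718 (0.0292% ± 0.0253 against 0.0% in every Tdg heterozygous adenoma) differed by less than 2 points.

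Each adenoma was next given a single mean. Over the 11991 tested sites it was 30.4, 27.8 and 28.3% in the double heterozygous and 27.5, 27.5 and 28.7% in the Tdg heterozygous adenomas. The groups overlapped, and the difference of 0.899 points was smaller than the SD of the double heterozygous adenomas, 1.4 points (two-sided exact permutation p = 0.5, n = 3 each, where 0.1 is the smallest p that 3 against 3 allows). Without the shallow adenoma the difference was 1.18 points, and without double heterozygous adenoma 1 it was 0.104 points. Adenoma 1 was thus the highest of the 6 and carried most of the difference.

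Sites were then grouped by their mean level in the 3 control adenomas. At the 1179 sites of 5 to 20% in control, double heterozygous adenoma 1 was at 19.7% and adenomas 2 and 3 at 11.1 and 12.4%, against 11.0, 10.1 and 15.2% in the Tdg heterozygous adenomas. Double heterozygous adenoma 1 and Tdg heterozygous adenoma 3 were the high adenomas of their genotypes here, the pair that was also most alike over all sites. The difference in means was 2.26 points (exact permutation p = 0.5, adjusted 0.667 over 4 classes, n = 3 each), 3.25 points without the shallow adenoma, and -0.405 points without double heterozygous adenoma 1. At the 2927 sites of 20 to 80% the levels were 62.0, 55.7 and 57.1% in double heterozygous and 55.0, 54.9 and 57.6% in Tdg heterozygous adenomas, a difference of 2.42 points (exact permutation p = 0.3, adjusted 0.6, n = 3 each). It was 3.01 points without the shallow adenoma and 0.574 points without double heterozygous adenoma 1. At the 1698 sites above 80% the means were 90.4% ± 0.805 and 90.1% ± 0.283 (SD, n = 3 each; exact permutation p = 0.8), 0.322 points apart, and -0.142 points without double heterozygous adenoma 1.

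At the 6156 tested sites below 5% in control adenomas the groups did not overlap. The mean level there was 0.758, 0.663 and 0.692% in double heterozygous and 0.616, 0.627 and 0.638% in Tdg heterozygous adenomas. The difference of 0.0772 points reached the smallest p that the design allows (exact permutation p = 0.1, adjusted 0.4 over 4 classes, n = 3 each). The unmethylated standard La168 was higher in the same libraries by more than this, and its part in the result was not tested.

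**Figure D4:**
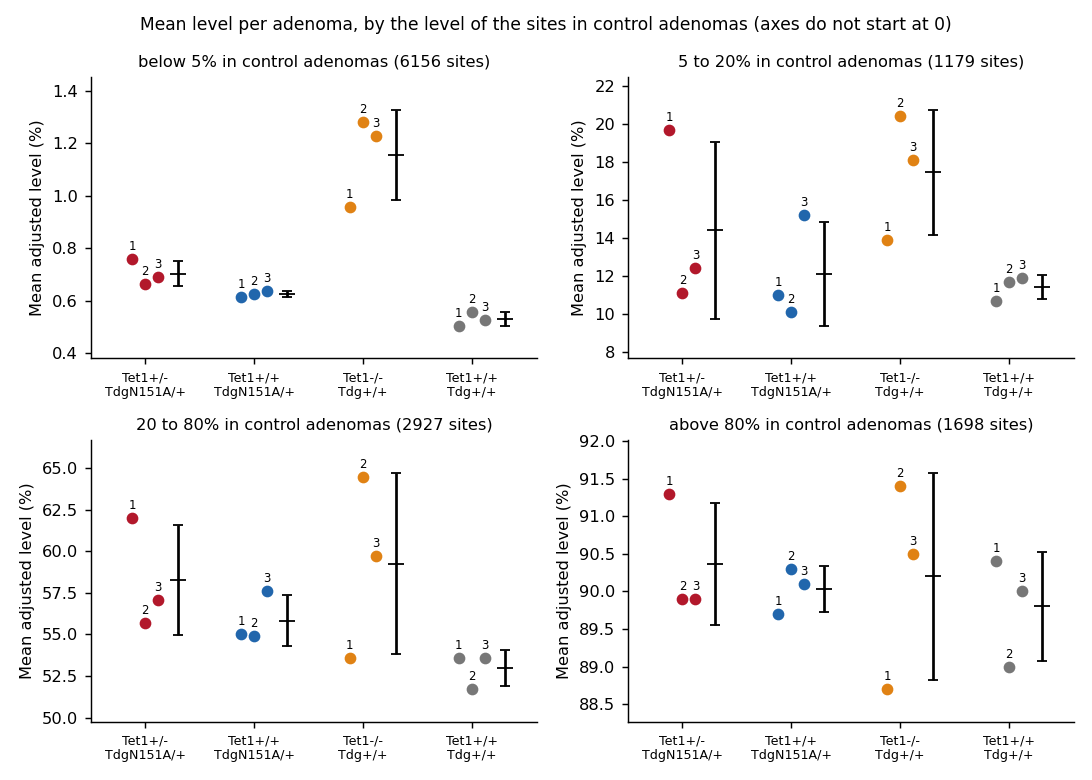
Mean adjusted level per adenoma (%, points numbered by replicate; bars give mean and SD of 3 adenomas) in the 4 genotypes, double heterozygous on the left, for tested sites grouped by their level in control adenomas. Double heterozygous adenoma 1 lies above the other 2 of its genotype in each panel, and the double and Tdg heterozygous adenomas are apart only below 5% (0.663 to 0.758% against 0.616 to 0.638%).

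Sites that respond to full loss of Tet1 were looked at as a list. It was chosen on the Tet1 null and control adenomas alone, with none of the 6 compared adenomas in the fit: 293 of 11670 sites with 50 reads in all 12 adenomas rose in Tet1 null adenomas (2.51%, edgeR adjusted p under 0.05) and 2 fell (0.0171%). At these 293 sites the mean level was 14.2, 12.8 and 12.7% in the double heterozygous adenomas, against 10.9, 11.5 and 11.0% in the Tdg heterozygous adenomas. Every double heterozygous adenoma was above every Tdg heterozygous adenoma, by 1.16 to 3.37 points over the 9 pairs. The means were 13.2% ± 0.853 in double heterozygous and 11.1% ± 0.347 in Tdg heterozygous adenomas (SD, n = 3 each), 2.14 points apart, while Tet1 null adenomas were at 25.9% ± 0.435 and control adenomas at 9.76% ± 0.62. The difference was 2.43 points without the shallow adenoma and 1.65 points without double heterozygous adenoma 1, and it was 1.74 points when the double heterozygous adenomas, all male, were set against the male Tdg heterozygous adenoma 2 alone.

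Site by site, no member of the list passed the test between the heterozygous genotypes, but its members leaned to 1 side. The median difference was 0.85 points over the 293 sites, against 0.03 points over all 11670. The double heterozygous mean was higher at 211 of the 293 sites (72.0%), against 55.7% of all 11670. Without the shallow adenoma the median was 0.742 points at the list and 0.05 points at all sites, and the shares were 74.4 and 59.5%. Without double heterozygous adenoma 1 the median was 0.315 points at the list and -0.0233 points at all sites, and the shares were 60.4 and 41.5%. All 3 double heterozygous levels lay above all 3 Tdg heterozygous levels at 32 of them (10.9%, against 3.2%) and below at 1 (0.341%, against 2.62%). At an unadjusted p under 0.05 (edgeR) there were 32 higher and 1 lower, together 11.3% of the list against 3.38% of all 11670 sites. These shares are descriptions, since sites share their libraries.

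In percentage points, the difference was larger where the rise in Tet1 null adenomas was larger, and the starting level was higher there too. At the 103 sites that rose by at least 20 points, the level was 28.2, 26.4 and 25.4% in double heterozygous and 21.5, 23.0 and 21.4% in Tdg heterozygous adenomas, and all 3 double heterozygous values were the higher ones. The median difference per site was 4.29 points there, 0.862 points at the 110 sites that rose by 5 to 20 points, and 0.0617 points at the 80 sites that rose by less. In the same order, mean levels were 26.7, 9.63 and 0.946% in double heterozygous and 22.0, 8.58 and 0.615% in Tdg heterozygous adenomas. The part of the starting level in this order was not tested. Across the 293 sites, the rise in Tet1 null adenomas and the difference between the heterozygous genotypes, which share no adenoma, correlated with Pearson r = 0.384 and Spearman rho = 0.467, as a description. The 11377 remaining sites gave r = 0.276.

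The list was also set beside sites of the same level in control adenomas. Of its members, 62 were at 5 to 20% in control, with a median difference of 4.27 points, against 2.34 points at all 1135 such sites. Without double heterozygous adenoma 1, these medians were 3.68 points for the list and -0.882 points for all sites of that level. At 40 members of 20 to 80% in control the medians were 4.69 points for the list and 2.05 points for all 2822 sites, and without adenoma 1 they were 3.83 and 0.27 points. At 189 members below 5% in control the mean level was 3.32, 2.35 and 2.46% in double heterozygous and 1.92, 2.03 and 1.94% in Tdg heterozygous adenomas. The median difference per site was 0.383 points, against 0.0 at all 6060 such sites, and without adenoma 1 these were 0.095 and -0.0233 points. Without the shallow adenoma, the medians of the list and of all sites were 3.76 and 3.45 points at 5 to 20%. They were 6.4 and 2.77 points at 20 to 80%, and 0.345 and 0.00833 points below 5%. The groups were apart at these 189 sites as they were at all sites below 5%, where the La168 standard also separated them.

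**Figure D5:**
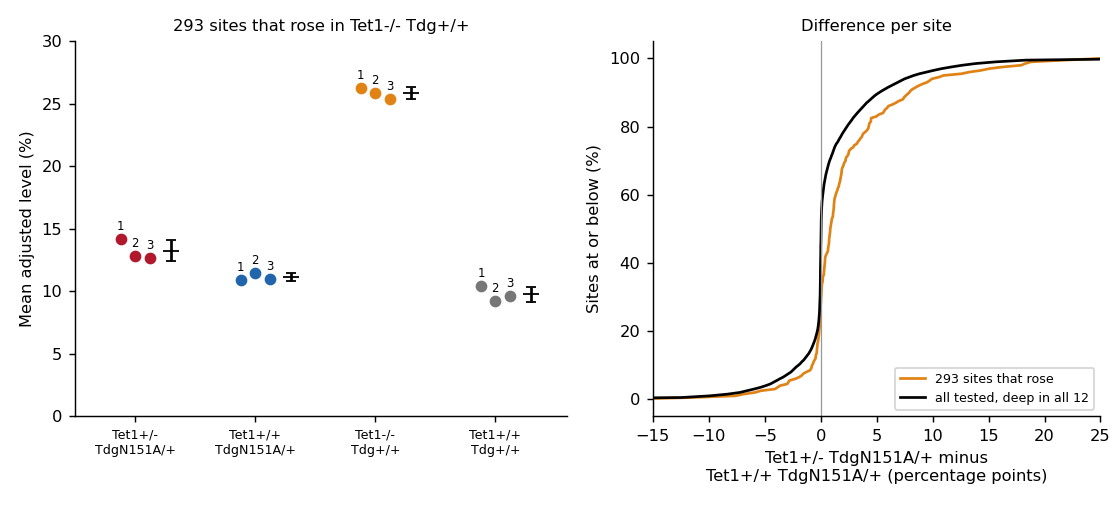
Left, mean adjusted level per adenoma (%, numbered points; bars give mean and SD of 3 adenomas) over the 293 sites that rose in Tet1 null against control adenomas, which chose the sites. Right, cumulative share of sites (%) by the difference between double heterozygous and Tdg heterozygous adenomas (percentage points) for the 293 sites (orange) and for all 11670 sites with 50 reads in all 12 adenomas (black). The double heterozygous adenomas lie at 12.7 to 14.2% and the Tdg heterozygous at 10.9 to 11.5%, and the orange curve lies to the right of the black one over most of its length.

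The 5 sites with the largest rise in Tet1 null adenomas differed from each other in this respect. At position 35660144 on chromosome 16 the level was 18.67, 19.56 and 17.31% in the double heterozygous adenomas, against 10.11, 10.67 and 10.19% in the Tdg heterozygous adenomas. Both groups were tight and far apart relative to their spread. Tet1 null adenomas were at 84.6% ± 10.9 there and control adenomas at 11.2% ± 0.729 (SD, n = 3 each). The edgeR fit gave an unadjusted p of 0.106 between the heterozygous genotypes at this site (log2 odds difference 0.95 ± 0.58, SE). The neighbour 360 bp away was at 4.5, 5.89 and 0.79% against 1.98, 1.57 and 3.8%, where the shallow adenoma alone fell below the Tdg heterozygous values. At position 43741702 on chromosome 18 the levels were 23.05, 11.61 and 11.88% against 7.73, 3.21 and 10.92%, again without overlap. Control adenomas were at 26.3% ± 10.6 at this site (SD, n = 3), above the means of both heterozygous genotypes (15.5 and 7.29%). At positions 118138315 on chromosome 3 and 10154587 on chromosome 8 the groups overlapped, with 20.8% ± 5.47 against 19.3% ± 13.7 and 19.3% ± 10.3 against 13.6% ± 7.53. Control adenomas were at 14.3% ± 13.9 and 9.4% ± 5.86 at these sites. Of the 10 sites named above as higher in double heterozygous adenomas, 3 belonged to the list, at positions 45960997 on chromosome 11, 31678498 on chromosome 2 and 138630147 on chromosome 4. None of the 10 lower sites did.

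Large gains and losses against control adenomas were rare and not shared by the adenomas of a genotype. Of 8547 sites below 5% in all 3 control adenomas, 2, 8 and 1 reached 15% or more in the double heterozygous adenomas, and 2, 11 and 2 did so in the Tdg heterozygous adenomas. The highest share, in Tdg heterozygous adenoma 2, was 0.129% (95% Clopper-Pearson interval 0.0643 to 0.23, counting error only). No site gained in all 3 adenomas of either genotype, and 1 of the 11 sites that gained in any double heterozygous adenoma was among the 14 that gained in any Tdg heterozygous adenoma. Of 1351 sites above 80% in all control adenomas, 1, 10 and 0 fell to 60% or less in the double heterozygous and 10, 23 and 1 in the Tdg heterozygous adenomas. The adenomas with fewest losses were again double heterozygous 1 and Tdg heterozygous 3, together with the shallow adenoma.

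By chromosome, the double heterozygous mean was the higher on each of the 19 autosomes, by 0.402 points on chromosome 13 to 1.32 points on chromosome 5, and the groups overlapped on every chromosome. Double heterozygous adenoma 1 decided this: without it the double heterozygous mean was higher on 13 and lower on 6 chromosomes, with differences of -0.131 to 0.494 points. Chromosome 10, which carries both Tet1 and Tdg, averaged 26.1% in double heterozygous and 25.3% in Tdg heterozygous adenomas. Its difference was 0.864 points, and 0.128 points without adenoma 1. At 15 of its 629 tested sites the unadjusted p was under 0.05 (2.38%, against 3.36% of all tested sites). Grouped by local density, sites with no other CCCGGG site within 500 bp were at 33.9% ± 2.19 in double heterozygous and 32.7% ± 0.978 in Tdg heterozygous adenomas. Sites with 1 such neighbour were at 37.7% ± 1.81 and 36.5% ± 0.903, those with 2 at 13.7% ± 0.605 and 13.3% ± 0.158, and those with 3 or more at 3.51% ± 0.0776 and 3.45% ± 0.0131 (SD, n = 3 each). Levels thus fell with density in both genotypes from 1 neighbour upward, and no density class differed beyond the spread (exact permutation p = 0.2 to 0.5, adjusted 0.5 for each of the 4 classes).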

How the data were processed

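The submitters' processing notes name Trim Galore, Bowtie2 and the mouse build mm9, with versions not given in the sources used here, while the protocol text in the labels names a rat build. Per the file headers, the authors deposited counts of methylated and unmethylated reads for every CCCGGG site. Next to these stand 2 percent values made by the authors, 1 raw and 1 adjusted with spiked standards, per the labels. A minimum depth of 100 reads is stated in the labels, and shallower sites are also listed.

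Groups follow the genotype labels. The main test was the quasi-likelihood test of edgeR 4.0.16 (R 4.3.3) on counts of both states. Each adenoma had its own depth term and each genotype a term for methylated reads, with an untrended dispersion (common value 0.107). The fit held all 12 adenomas, tests were two-sided, and p-values were adjusted over all tested sites. Alternatives used limma 3.58.1 (2 reads added to each count, or the logit of the adjusted level), a quasi-binomial model, other depth limits, the 6 adenomas alone, covariates and left-out adenomas. The functions were checked on simulated counts, where the quasi-binomial model made false calls among unchanged sites. Named sites were the 10 with the smallest p per direction, 1 per run of sites within 500 bp, the 3 largest differences per direction without overlap, the 3 runs per direction with the smallest p and the 5 largest rises in Tet1 null adenomas; the called sites without double heterozygous 1 were named after their values were seen. Members and lists were chosen with earlier results of these data known. Limits for a count of 0 use 3 reads, and intervals cover counting error only. No genome of the files' build was at hand, so sites have mm9 positions and no gene names, and gene lists and cell type markers were not analysed here. Figures were drawn with matplotlib 3.10.9.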

Additional observations from a re-analysis of the deposited data

How the results depend on the processing

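The count of changed sites was 0 under every alternative run except that without double heterozygous adenoma 1, which gave 5, so it ranged from 0 to 5 when single adenomas were left out. These alternatives were depth limits of 20, 100 and 300 reads, sites chosen on 5 or all 12 adenomas, limma, the quasi-binomial model, the 6 adenomas alone (also without the shallow adenoma, a setting added after the data were seen), a replicate block, sex as a covariate, X chromosome sites included, chromosome 10 left out, all sites kept, levels of 5 to 95% and reads thinned to equal depth. The smallest adjusted p of edgeR lay between 0.0511 and 1.0 in those with 0 calls, the lowest without Tdg heterozygous 3 (0.0511) and with sex as a covariate (0.0531). With replicate number as a block the count was also 0 (302 sites at an unadjusted p under 0.05, edgeR). Deviations of same-numbered adenomas correlated with -0.219, 0.26 and -0.142. With 3 adenomas per genotype these values cannot decide whether the numbers pair the adenomas. Runs of sites gave 0 in each setting. Leaving out single adenomas, the difference in mean level ranged from 0.104 to 1.41 points over all sites, 0.0502 to 0.098 below 5%, -0.405 to 3.92 at 5 to 20%, 0.574 to 3.69 at 20 to 80%, -0.142 to 0.57 above 80%, and 1.65 to 2.43 at the sites that rose in Tet1 null adenomas. By density it ranged from -0.0547 to 1.93 points (no neighbour), 0.132 to 1.85 (1), 0.115 to 0.675 (2) and 0.0295 to 0.104 (3 or more). The negative ends came without double heterozygous 1, and the cause was not tested. With neighbours counted within 200 bp the last class was at -0.0264 points. For the 20 sites with the smallest p, 414 of 419 recomputed values kept direction and stayed short of the threshold, 3 were called without double heterozygous 1, and 2 turned: position 34256686 without that adenoma (log2 odds difference -0.12, and up to 6.21 with other adenomas left out) and position 40493950 in thinned reads (0.00).

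Depth in double heterozygous 3 limits each result. Of the 14610 sites, 6235 had under 100 reads in at least 1 of the 6 adenomas.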

Other observations

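Sites on the X chromosome followed the sex of the adenoma and not the genotype. Of 180 X chromosome sites with 50 reads in the 6 adenomas, the median level was 0.165, 0.135 and 0.0% in the double heterozygous adenomas, all male by their Y chromosome reads. In the Tdg heterozygous adenomas it was 30.6 and 28.0% in the female adenomas 1 and 3, and 0.15% in the male adenoma 2. Methylation of CpG islands on the inactive X chromosome of females is textbook knowledge. At 158 of the 180 sites (87.8%) the male Tdg heterozygous adenoma was below both female adenomas of its genotype. With these sites in the fit, 130 of them were lower and 1 higher in double heterozygous adenomas at an unadjusted p under 0.05, and 0 passed the adjusted threshold (edgeR). In the remaining genotypes the median was 0.14, 0.22 and 30.1% in Tet1 null and 0.15, 27.2 and 32.0% in control adenomas, high again in each adenoma with 10 or fewer Y chromosome reads.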
